A study of Mus musculus with 3 samples.

Results

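The subject is the set of TCR beta clonotypes that DN (double negative) and CD4 T cells of a lupus-prone mouse had in common and that were not found in its CD8 T cells. A clonotype here is a distinct nucleotide CDR3 sequence with its V and J gene, and it was a member when the same CDR3, V gene and J gene stood in the DN and CD4 libraries and not in the CD8 library. The members were thus chosen by their read counts, at least 1 read in DN and in CD4 and none in CD8. There were 1817 such clonotypes among the 154480 distinct TCR beta clonotypes of the 3 libraries. The cells came from the spleen of a single 16-week-old MRL.lpr mouse, a strain with a defect in Fas, the receptor that triggers the death of activated lymphocytes, in which DN T cells accumulate. CD4, CD8 and DN T cells were sorted from it, 1000000 cells each, and the mRNA of each subset gave 1 library, so all groups share the strain, the age and the animal, and no other strain was sequenced. The tables hold TCR sequences alone, so the sorted subsets could not be checked against marker genes. The libraries had 194290 TCR beta reads in DN, 133667 in CD4 and 150874 in CD8 T cells, and absence from CD8 allows a share of up to 0.00199% of that library (3 reads). With 1 library per subset there is no replicate check and no p-value is given. The 95% intervals (Wilson for a share, Newcombe for a difference of shares) cover counting error only, and not all of it, since PCR copies of one molecule are counted as separate reads, and clonotypes from a single library do not act as replicates.

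A TCR beta chain is made in the thymus when a V, a D and a J gene segment are joined, with bases trimmed from the ends and untemplated bases added between them. The CDR3 is the stretch across this junction, which meets the peptide held by an MHC molecule, and its sequence marks the descendants of a T cell. The same nucleotide CDR3 in 2 sorted subsets can mark descendants of 1 cell or the same join made in separate cells, which cannot be told apart in a table of clonotypes. Whether some reads of 1 library came from cells or molecules of the other was not tested either. Members that stand for the main patterns are shown from the deposited tables, 5′ to 3′, under their amino acid CDR3 or their V and J genes. Capitals mark the junction bases, those left after the longest match to the usual V end and to the usual J start among in-frame clonotypes. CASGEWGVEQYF had the most DN reads of any member. The TRBV29 clonotype was found mostly in DN, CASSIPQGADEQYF and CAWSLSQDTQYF mostly in CD4, and the TRBV1 clonotype and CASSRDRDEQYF in both at similar shares. The last 3 encode 1 protein sequence, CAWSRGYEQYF, by different bases.
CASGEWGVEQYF: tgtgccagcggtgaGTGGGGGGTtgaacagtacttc
TRBV29 with TRBJ2-2: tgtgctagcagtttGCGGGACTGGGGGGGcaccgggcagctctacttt
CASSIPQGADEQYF: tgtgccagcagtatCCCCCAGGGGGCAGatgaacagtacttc
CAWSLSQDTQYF: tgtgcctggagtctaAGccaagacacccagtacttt
TRBV1 with TRBJ1-3: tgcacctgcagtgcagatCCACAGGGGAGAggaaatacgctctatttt
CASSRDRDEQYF: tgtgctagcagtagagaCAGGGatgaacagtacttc
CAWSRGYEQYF, form 1: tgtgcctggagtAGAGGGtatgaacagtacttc
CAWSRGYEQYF, form 2: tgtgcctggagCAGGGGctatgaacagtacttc
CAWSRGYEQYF, form 3: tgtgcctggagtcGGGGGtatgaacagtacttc

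The shared clonotypes made up 4.33% of DN clonotypes (4.14 to 4.53%) and 4.06% of CD4 clonotypes (3.88 to 4.24%). They held 6548 reads in DN, 3.37% of that library (3.29 to 3.45%), and 8815 reads in CD4, 6.59% (6.46 to 6.73%). Most had few reads in both libraries. The median was 2 reads in DN (quartiles 1 and 4, highest 43) and 1 read in CD4 (quartiles 1 and 3, highest 293), and 414 of them, 22.8%, had a single read in each. Only 385 had at least 2 reads in both libraries, 114 had at least 3 and 18 had at least 5. Large counts therefore stood mostly on one side: 323 members had 5 or more DN reads with 1 or 2 CD4 reads, and 233 had 5 or more CD4 reads with 1 or 2 DN reads. The rule used presence in these files, so these counts describe the members and were not tested. At the edge of the rule, 452 further clonotypes of both DN and CD4 were left out for a single CD8 read, and these had a median of 5 reads in DN and 1 in CD4.

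**Figure D1:**
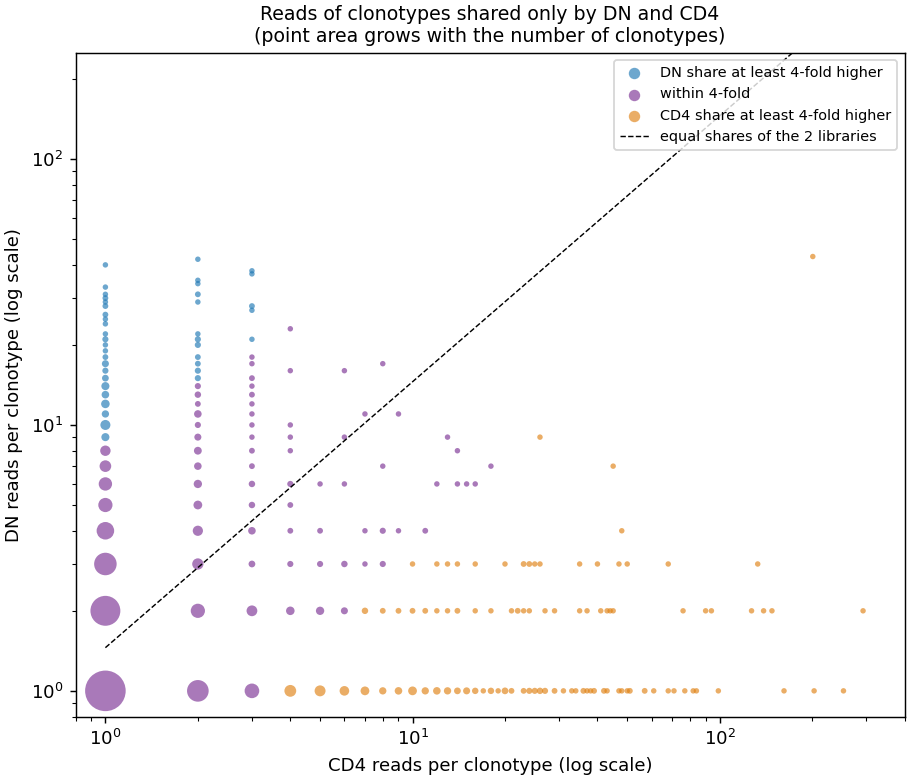
Each point is a pair of read numbers, with CD4 reads on the x axis and DN reads on the y axis (both log scales), and its area grows with the number of clonotypes that have this pair. Colours give the ratio of shares with 0.5 reads added, and the dashed line marks equal shares of both libraries. The largest point is the 414 clonotypes with 1 read in each, and the points with many reads lie along the 2 axes, apart from the one with 43 DN and 201 CD4 reads.

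Taken over all members, the share of DN reads was 0.511 times the share of CD4 reads (counting interval 0.495 to 0.527). The log2 ratio of the DN to the CD4 share, with 0.5 reads added, had a median of -0.54, the value of a clonotype with 1 read in each library, with quartiles of -1.28 and 0.68. In 129 members the DN share was at least 4-fold higher (background over all 3754 clonotypes found in both DN and CD4, 33.1%), which is 7.10% of the members. In 267 members the CD4 share was at least 4-fold higher, 14.7% of the members, against a background of 11.1%. The rule left out clonotypes with CD8 reads, so the distance from this background is partly set by it. The 1937 clonotypes that were also in CD8 had a median log2 ratio of 2.48 and a pooled DN to CD4 ratio of 3.02. The 267 CD4-leaning members held 6326 CD4 reads, 71.8% of the members' CD4 reads, with a median of 12 CD4 reads and 1 DN read. The 129 DN-leaning members held 2169 DN reads, 33.1% of the members' DN reads, with a median of 14 DN reads (9 to 42) and 1 CD4 read (1 to 3).

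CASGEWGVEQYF, with TRBV13-2 and TRBJ2-7, was the member with the most DN reads and the only one among the 10 largest in both libraries. It had 43 DN reads and 201 CD4 reads, so its DN share was 0.147 times its CD4 share (exact binomial interval 0.103 to 0.205). It ranked 641 in DN and 25 in CD4 T cells. In CD8 T cells neither this sequence nor any other coding for the same CDR3 with these genes was found.

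The other 9 members with the most DN reads had 31 to 42 reads in DN and only 1 to 3 in CD4. The clonotype with TRBV29 and TRBJ2-2 shown above had 40 DN reads and 1 CD4 read, the highest ratio of any member with at least 10 reads in all, 27.5, with a wide interval of 4.66 to 1114. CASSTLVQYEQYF (TRBV13-1 and TRBJ2-7), in which no D gene was recognised, had 38 DN reads and 3 CD4 reads, a ratio of 8.71 (2.77 to 44.1). A clonotype with TRBV1 and TRBJ2-5 had 37 DN reads and 3 CD4 reads, and the same protein sequence with these genes, counted over all nucleotide forms, had 302 reads in DN, 12 in CD4 and 36 in CD8. This protein sequence was thus present in CD8 T cells through another nucleotide form. A clonotype with TRBV13-1, TRBD2 and TRBJ2-1 had 33 DN reads and 1 CD4 read, a ratio of 22.7 (3.80 to 924). TRBV13-1 was used by 4 of the 10 members with the most DN reads, and also by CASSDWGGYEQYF, which tied with the last 2 of them at 31 DN reads but had 1 CD4 read where they had 2. The bases of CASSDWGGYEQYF had 2 CD8 reads under TRBV13-3, and its protein sequence with the same genes had 23 CD8 reads.

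CD4-rich members reached higher read numbers, and 9 of the 10 largest had at most 3 DN reads. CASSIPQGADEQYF (TRBV19 and TRBJ2-7) had 293 CD4 reads, which placed it 9 in that library, and 2 DN reads, so its CD4 share was 213 times its DN share (58.4 to 1767). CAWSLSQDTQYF (TRBV31 and TRBJ2-5) had 253 CD4 reads and 1 DN read, the largest difference between the libraries, 368 times (65.4 to 14582). Its junction held only 2 bases beyond the V and J matches. A second clonotype with TRBV31, joined to TRBJ2-4, had 203 CD4 reads and 1 DN read, and one with TRBV5 and TRBJ2-5 had 162 and 1. TRBV31, the V gene that lies beyond the constant regions and joins by inversion, was used by 4 of the 10 members with the most CD4 reads. The 10 together held 1758 CD4 reads, 19.9% of the members' CD4 reads.

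Members with similar shares in both libraries were small. The clonotype with TRBV1 and TRBJ1-3 shown above had 17 DN and 8 CD4 reads, a ratio of 1.46 (0.598 to 3.91). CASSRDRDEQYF (TRBV17 and TRBJ2-7) had 11 and 9 reads, a ratio of 0.841 (0.317 to 2.30), and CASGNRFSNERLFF (TRBV13-2 and TRBJ1-4) had 11 and 7 reads, a ratio of 1.08 (0.383 to 3.29). In these 3 the intervals include 1, so a difference between the libraries was not detectable at this depth. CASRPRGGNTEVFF (TRBV13-1 and TRBJ1-1), with 9 DN and 26 CD4 reads, had a higher CD4 share, 4.20 times (1.91 to 10.2), and so did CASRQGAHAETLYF (TRBV26 and TRBJ2-3), with 7 and 45 reads, 9.34 times (4.18 to 24.6).

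The members formed a small part of the clonotypes at every size. Of DN clonotypes with 1 read, 3.30% were members (3.08 to 3.54%), against 7.61% of those with 5 to 9 reads (6.71 to 8.63%) and 5.44% of those with 10 or more (4.67 to 6.33%). Of these largest DN clonotypes, 83.3% also had CD8 reads, which removed them from the set, and 11.3% stood in the DN library alone. In CD4 T cells the share of members was 3.83% of clonotypes with 1 read (3.61 to 4.06%) and 9.28% of those with 10 or more (8.04 to 10.7%). Of these largest CD4 clonotypes, 62.3% were found in CD4 alone and 28.5% also in CD8 T cells.

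V genes of the shared clonotypes were close to DN-only clonotypes for some genes, close to CD4-only clonotypes for others, and between the 2 sets or outside both for the rest of those described. TRBV13-1 (Vβ8.3) was the most used, with 355 members, 19.5% (17.8 to 21.4%), against 18.4% of DN-only and 11.8% of CD4-only clonotypes. The difference was 7.70 points from CD4-only (5.91 to 9.61) and 1.14 points from DN-only clonotypes (-0.66 to 3.08), and the second interval includes 0. Matched by nucleotide CDR3 alone, whatever the V call, these differences were 6.58 and 0.18 points. Weighted by CD4 reads, members differed by 1.17 points from CD4-only clonotypes, and weighted by DN reads, by 4.12 points from DN-only clonotypes. These weights give members different shares, so the 2 values do not rank nearness to the 2 sets. TRBV13-2 followed with 218 members, 11.998% (12.6% of DN-only and 12.5% of CD4-only clonotypes), then TRBV1 with 189, 10.4% (11.2% and 5.92%). TRBV13-3 was used by 151 members, 8.31% (9.62% and 4.83%). TRBV5, with 174 members, 9.58% (6.85% and 10.9%), was nearer to CD4-only clonotypes, with a difference of 2.72 points from DN-only (1.42 to 4.19) and -1.34 points from CD4-only clonotypes (-2.65 to 0.13). TRBV29, with 1.60% of members, 2.48% of DN-only and 1.62% of CD4-only clonotypes, also differed from DN-only clonotypes alone (-0.88 points, -1.40 to -0.18). So did TRBV19 (-1.26 points, -2.32 to -0.01), whose share of members, 6.27%, was below both DN-only (7.53%) and CD4-only clonotypes (7.47%).

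In 5 V genes the share of members lay between the other 2 sets with both intervals away from 0. TRBV20 (Vβ15) was used by 3.80% of members (3.01 to 4.78%), 1.67% of DN-only and 9.999% of CD4-only clonotypes. The difference was 2.12 points from DN-only (1.32 to 3.11) and -6.20 points from CD4-only clonotypes (-7.04 to -5.18). TRBV17 (Vβ9) ran the other way, with 5.50% of members (4.55 to 6.65%), 8.92% of DN-only and 2.84% of CD4-only clonotypes. TRBV4 was used by 6.16% of members, 4.40% of DN-only and 8.79% of CD4-only clonotypes, and TRBV26 by 2.75%, 1.75% and 5.11%. TRBV14 was used by 1.82%, 2.56% and 1.27%, with both intervals ending close to 0. A further gene, TRBV8, also differed from both sets but rested on 2 members. Over all V genes, 9 of 29 differed from DN-only and 10 of 26 from CD4-only clonotypes by an interval that did not include 0, with no adjustment for their number.

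**Figure D2:**
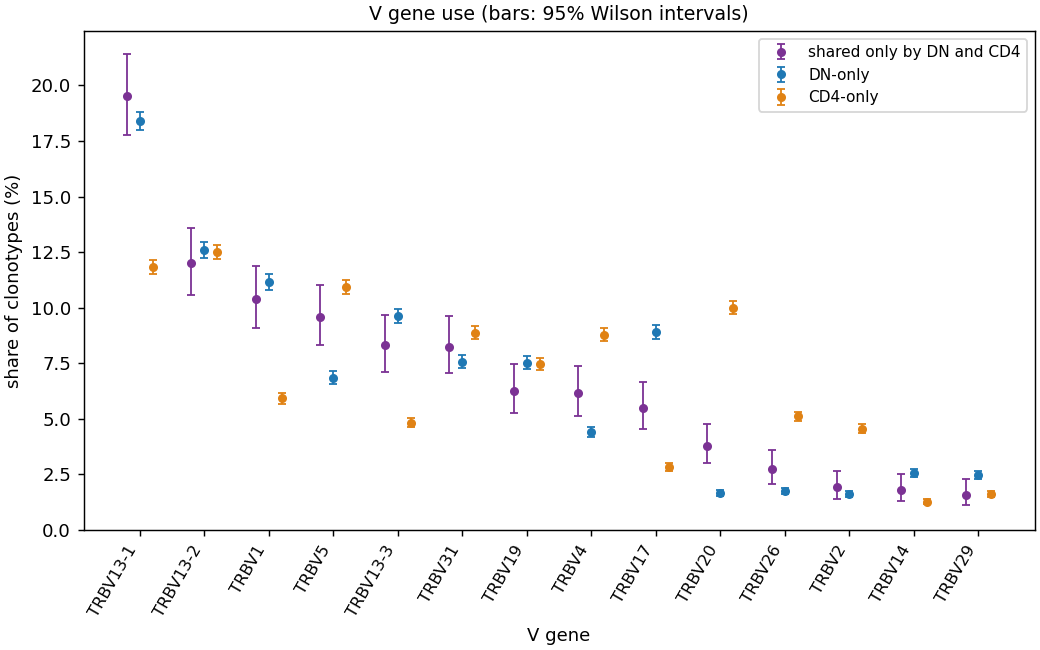
The share of clonotypes (y axis, %) is plotted for each V gene used by at least 1% of members (x axis), for clonotypes shared only by DN and CD4, DN-only and CD4-only clonotypes, with 95% Wilson intervals as bars. TRBV20, TRBV4, TRBV26, TRBV17 and TRBV14 lie between DN-only and CD4-only clonotypes, and TRBV13-1 lies near DN-only clonotypes at 19.5%.

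Within the shared clonotypes, V genes differed with the side on which the reads lay, a measure that does not use the V gene. TRBV20 was used by 26 of the 267 CD4-leaning members, 9.74% (6.73 to 13.9%), close to the 9.999% of CD4-only clonotypes. It was used by 0 of the 129 DN-leaning members, which allows a share of up to 2.33%, against 1.67% of DN-only clonotypes. The difference between DN-leaning and CD4-leaning members was -9.74 points (-13.9 to -5.57). TRBV4 was used by 8.61% of CD4-leaning and 0.775% of DN-leaning members, a difference of -7.84 points (-11.9 to -3.36). TRBV13-1 went the other way, with 26.4% of DN-leaning members (19.5 to 34.6%) and 13.5% of CD4-leaning members (9.90 to 18.1%), a difference of 12.9 points (4.62 to 21.8). The V calls were taken as listed here. The same bases stood in CD8 under another V gene for 12 DN-leaning and 9 CD4-leaning members, and this split was not repeated without V calls. TRBV31 was used by 12.7% of CD4-leaning members, 3.86 points more than CD4-only clonotypes (0.37 to 8.40), and by 6.20% of DN-leaning members, and the interval of the difference between the leanings, -11.98 to 0.02 points, includes 0. The 1421 members within 4-fold had 20.1% TRBV13-1 and 3.03% TRBV20. The number of CD4 reads gave a like order, but it largely sets the leaning and is no separate result. CD4-leaning members had at least 4 CD4 reads and DN-leaning members at most 3. TRBV20 was used by 17 of the 170 members with 10 or more CD4 reads (6.34 to 15.4%) and by 2.26% of those with 1 CD4 read (1.52 to 3.33%), while CD4-only clonotypes had 8.95% and 9.88%.

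**Figure D3:**
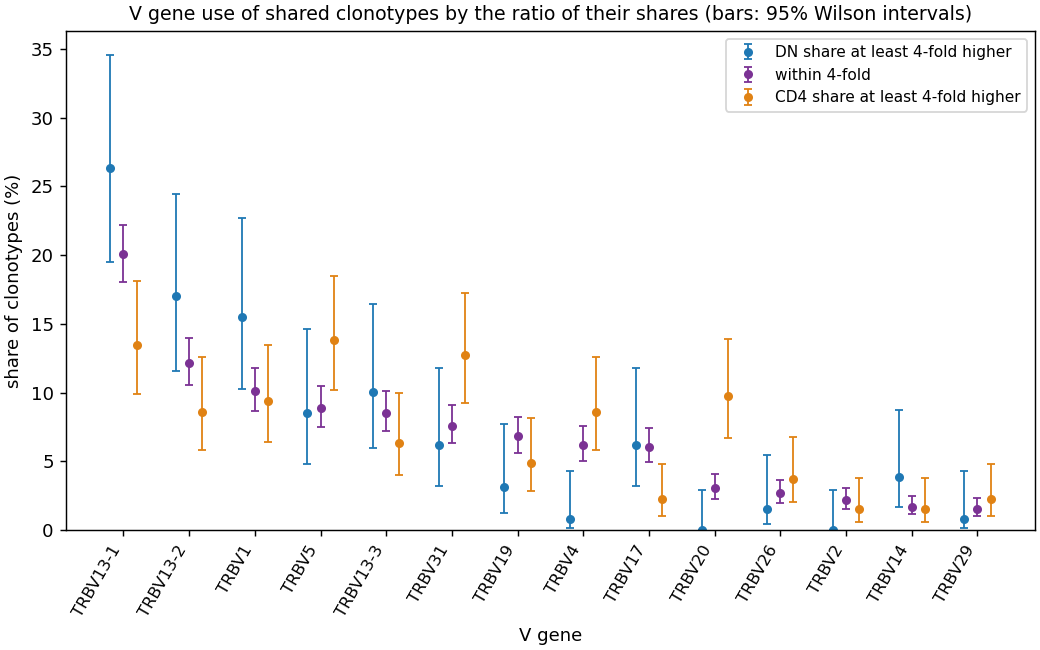
The share of clonotypes (y axis, %) is plotted by V gene (x axis) for the 129 members with a DN share at least 4-fold higher, the 1421 within 4-fold and the 267 with a CD4 share at least 4-fold higher, with 95% Wilson intervals as bars. TRBV20 is at 0 in the first group and at 9.74% in the last, and TRBV13-1 falls from 26.4% to 13.5%.

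The J cluster of the members was nearer to that of DN-only clonotypes, while single J genes varied in this. The J genes lie in 2 clusters, each after its own D gene, and TRBJ2 genes were used by 68.9% of members (66.7 to 71.0%), 70.4% of DN-only and 63.2% of CD4-only clonotypes. The difference from CD4-only clonotypes was 5.72 points (3.50 to 7.86), and that from DN-only clonotypes, -1.54 points, had an interval that includes 0 (-3.76 to 0.61) and became 1.86 points when clonotypes were weighted by reads. Within the members, TRBJ2 genes were used by 76.0% of DN-leaning and 65.2% of CD4-leaning clonotypes, a difference of 10.8 points (1.07 to 19.6). TRBJ2-7 was the most used J gene, with 24.1% of members (22.2 to 26.1%), 22.9% of DN-only and 16.7% of CD4-only clonotypes. TRBJ2-1 was the only J gene whose share differed from that of DN-only clonotypes by an interval without 0, with 13.5% of members against 15.9%, a difference of -2.38 points (-3.93 to -0.68). Its share in CD4-only clonotypes was 12.3%. The other J genes of the second cluster were used by 5.12% (TRBJ2-2), 8.31% (TRBJ2-3), 7.15% (TRBJ2-4) and 10.7% (TRBJ2-5) of members. Their shares were 4.57%, 8.07%, 6.90% and 12.1% of DN-only and 5.13%, 8.82%, 8.22% and 12.1% of CD4-only clonotypes. In the first cluster TRBJ1-1 had 9.74% of members (DN-only 8.78%, CD4-only 9.92%), TRBJ1-4 7.59% (6.51% and 7.72%) and TRBJ1-6 3.69% (4.01% and 3.63%), and the members' shares of these 3 genes were nearer to CD4-only clonotypes, with intervals of both differences that include 0. TRBJ1-2, TRBJ1-3 and TRBJ1-5, with 3.47%, 4.46% and 2.15%, were each less frequent than in CD4-only clonotypes (6.33%, 6.12% and 3.10%) by intervals without 0. The most frequent pair was TRBV13-1 with TRBJ2-7, with 95 members, 5.23% (4.30 to 6.35%), against 4.72% of DN-only and 1.89% of CD4-only clonotypes. In all, 192 pairs of V and J genes were used.

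TRBD2 was assigned to 36.5% of members (34.3 to 38.7%), between the 40.3% of DN-only and the 28.9% of CD4-only clonotypes, and both differences, -3.83 points (-6.08 to -1.53) and 7.63 points (5.40 to 9.91), had intervals without 0. TRBD1 was assigned to 37.9%, against 37.1% and 45.3%. No D gene was recognised in 25.6% of members (23.7 to 27.7%), 22.5% of DN-only and 25.9% of CD4-only clonotypes. TRBD2 was the call in 46.5% of DN-leaning and 25.8% of CD4-leaning members, a difference of 20.7 points (10.6 to 30.5). TRBD2 lies after the TRBJ1 cluster and is not expected to join it, and TRBD2 with a TRBJ1 gene was listed for 33 members, 1.82%, against 1.96% of DN-only and 2.10% of CD4-only clonotypes.

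Of the shared clonotypes, 1715 were in frame without a stop codon, 94.4% (93.2 to 95.4%). The share was 89.6% in DN-only clonotypes (89.3 to 89.9%), a difference of 4.79 points (3.59 to 5.82), and 91.5% in CD4-only clonotypes (91.3 to 91.8%), a difference of 2.85 points (1.66 to 3.85). It was lower than in the other sets of 2 libraries. Clonotypes shared only by DN and CD8 had 96.2%, a difference of -1.77 points (-3.02 to -0.67), and those shared only by CD4 and CD8 had 98.4%, a difference of -4.03 points (-5.28 to -2.86). The differences from the sets of 1 library lay in clonotypes with a single read. Among clonotypes with 1 DN read, 95.8% of members (94.1 to 97.0%) and 87.7% of DN-only clonotypes (87.3 to 88.1%) were in frame, and among those with 1 CD4 read, 95.02% of members and 89.8% of CD4-only clonotypes. With 5 to 9 DN reads the order was turned, with 90.1% of members (85.5 to 93.4%) and 94.1% of DN-only clonotypes (92.8 to 95.2%). Among members with at least 2 reads in both libraries, compared with clonotypes of at least 2 reads, the difference was -0.66 points from DN-only (-3.76 to 1.63) and -2.20 points from CD4-only clonotypes (-5.30 to 0.07). At this setting 1 read in DN or CD4 counted as absence. DN-only then also held members with 1 CD4 read, and CD4-only those with 1 DN read. Copies of a larger clonotype with 1 wrong base can be counted as clonotypes of their own, and such neighbours (1 mismatch, same genes and length, at least 10 times the reads) were 0.826% of members in DN and 2.46% of DN-only clonotypes. In CD4 they were 0.440% of members and 1.69% of CD4-only clonotypes. With such neighbours merged into the larger clonotype, the in-frame differences were 4.85 and 2.81 points. Only copies of equal length were merged, and these keep the length of the larger clonotype. Copies with a lost or added base, which change the frame, were not tested.

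**Figure D4:**
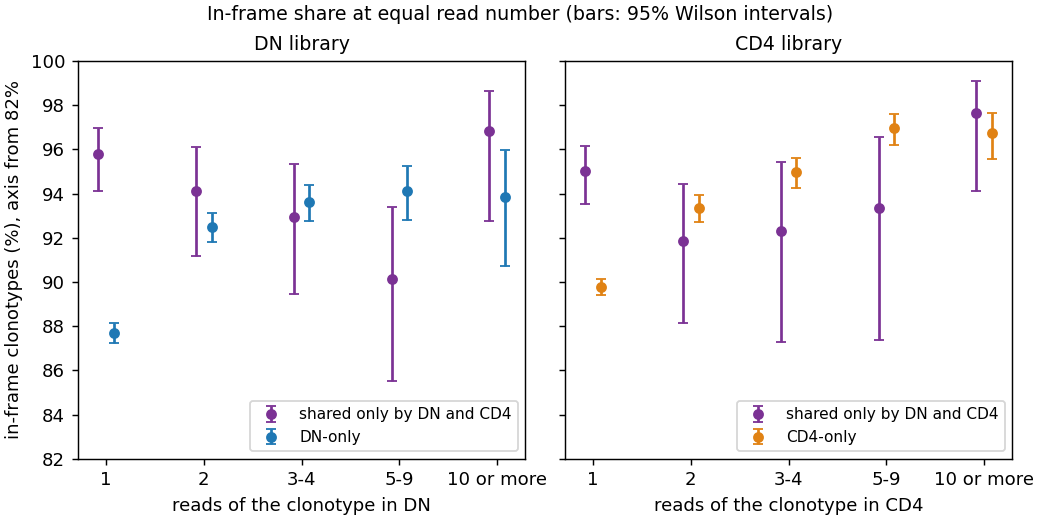
The share of in-frame clonotypes (y axis, %, drawn from 82%) is plotted by the number of reads of the clonotype in DN (left) and CD4 (right), for members and for clonotypes of that library alone, with 95% Wilson intervals as bars. Members are above the others at 1 read, 95.8% against 87.7% in DN, and the intervals overlap in all larger classes.

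The 102 members that were not productive had 367 DN and 277 CD4 reads. In 100 of them the length was not a multiple of 3, and 2 had a stop codon in frame. TRBV31 accounted for 30 of them, 29.4% (21.4 to 38.9%), against 14.3% of nonproductive DN-only clonotypes (13.1 to 15.5%) and 17.7% of nonproductive CD4-only clonotypes (16.4 to 19.0%). The member with the most DN reads among them, with TRBV13-3 and TRBJ1-2 and a CDR3 of 37 bases, had 23 DN and 4 CD4 reads.

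CDR3 length of in-frame members lay between the other sets. The mean was 42.1 ± 4.7 nucleotides (SD over 1715 clonotypes), 42.7 ± 4.5 in 28991 DN-only and 41.8 ± 4.4 in 35785 CD4-only clonotypes. Members were thus shorter than DN-only clonotypes by a mean difference of -0.67 nucleotides (95% interval -0.90 to -0.44) and longer than CD4-only clonotypes by 0.30 (0.08 to 0.53), both small beside the SD. The difference from CD4-only clonotypes became -0.23 nucleotides when clonotypes were weighted by CD4 reads. It was 0.03 (-0.50 to 0.56) with at least 2 reads in both libraries, where CD4-only also held members with 1 DN read. The most frequent length was 14 residues, in 28.4% of members, 26.7% of DN-only and 28.6% of CD4-only clonotypes. Lengths of 16 residues were found in 10.4% of members (9.02 to 11.9%), 13.7% of DN-only and 9.25% of CD4-only clonotypes. DN-leaning members averaged 43.4 ± 4.8 nucleotides and CD4-leaning members 41.1 ± 4.6, a difference of 2.32 (1.31 to 3.32).

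**Figure D5:**
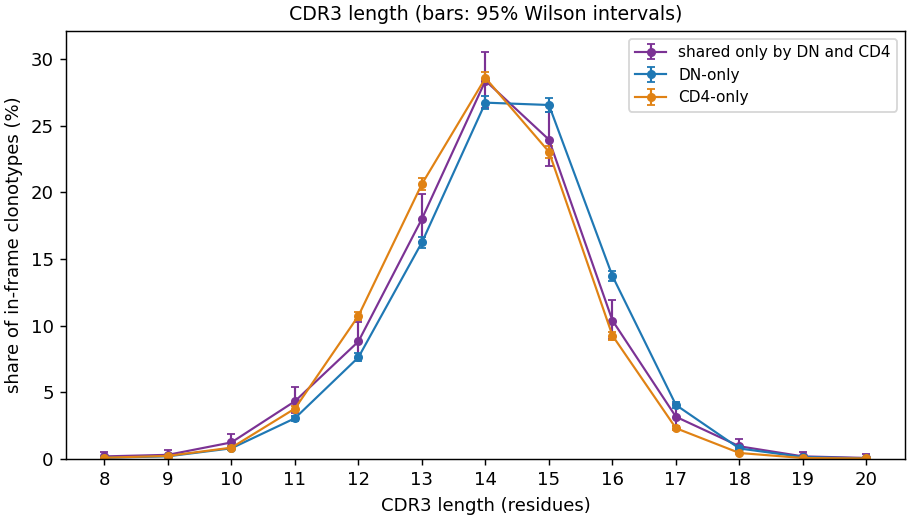
The share of in-frame clonotypes (y axis, %) is plotted by CDR3 length in residues (x axis, 8 to 20) for clonotypes shared only by DN and CD4, DN-only and CD4-only clonotypes, with 95% Wilson intervals as bars. All 3 curves peak at 14 residues, and at 16 residues members (10.4%) are below DN-only clonotypes (13.7%).

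The part of the CDR3 that matched neither the usual V end nor the usual J start was shorter on average in members than in either other set. Both ends were read from the clonotypes, so the J match, up to 26 bases, can take in D bases. How far it reaches can differ with the J gene. TRBJ2-7 was used by 24.1% of members, 22.9% of DN-only and 16.7% of CD4-only clonotypes, and the part played by gene use was not tested. The unmatched part averaged 9.89 ± 4.17 bases in members, 11.2 ± 4.7 in DN-only and 10.3 ± 4.6 in CD4-only clonotypes, so the differences were -1.27 (-1.47 to -1.06) and -0.44 bases (-0.64 to -0.24). At most 3 such bases were left in 103 members, 6.01% (4.98 to 7.23%), against 2.97% of DN-only and 4.33% of CD4-only clonotypes. The difference from DN-only clonotypes was again widest at 1 read, with a mean of 9.63 bases in members with 1 DN read and 11.5 in such DN-only clonotypes. With 10 or more DN reads the means were 10.8 and 10.9. This did not hold against CD4-only clonotypes, with means of 10.2 and 10.7 at 1 CD4 read and 9.06 and 9.62 at 5 to 9. With at least 2 reads in both libraries the difference from CD4-only clonotypes, which then also held members with 1 DN read, was -0.09 bases (-0.52 to 0.34). DN-leaning members had 11.1 ± 4.2 junction bases and CD4-leaning members 9.37 ± 4.11, a difference of 1.78 (0.89 to 2.67). For comparison, clonotypes shared only by DN and CD8 had 9.94 ± 4.12 bases, from which members differed by -0.06 (-0.28 to 0.17), and those shared only by CD4 and CD8 had 8.02 ± 4.21, from which members differed by 1.86 (1.59 to 2.14).

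Members belonged to a protein sequence that several nucleotide sequences encoded more often than clonotypes of DN or CD4 alone, and less often than the other clonotypes of 2 libraries. Counted over the 3 libraries with the same V and J gene, 414 of the 1715 in-frame members, 24.1% (22.2 to 26.2%), shared their amino acid CDR3 with at least 1 other nucleotide sequence, against 16.4% of DN-only and 16.6% of CD4-only clonotypes. The differences were 7.77 (5.75 to 9.89) and 7.51 points (5.51 to 9.63). The share was 26.8% in clonotypes shared only by DN and CD8, a difference of -2.66 points (-4.95 to -0.29), and 38.1% in those shared only by CD4 and CD8, a difference of -13.9 points (-16.9 to -11.0). The extreme was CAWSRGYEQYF with TRBV31 and TRBJ2-7, which 14 nucleotide sequences encoded and of which the 3 shown above were members. Form 1 had 3 DN and 16 CD4 reads, form 2 had 5 and 2, and form 3 had 1 and 6. All 14 together had 9 reads in DN, 84 in CD4 and 5 in CD8 T cells. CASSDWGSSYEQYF (TRBV13-1 and TRBJ2-7), with 9 DN and 6 CD4 reads, was encoded by 7 nucleotide sequences. The J match took 26 of its bases and left only 2 unmatched, although TRBD2 was assigned to it. D bases can thus lie within that match, and the 2 are not the whole junction. The bases of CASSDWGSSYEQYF had 9 CD8 reads under TRBV13-3, and its protein sequence with the same genes had 9 CD8 reads under other bases.

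Absence from CD8 held for the nucleotide sequence with its genes, not always for the protein or the bare sequence. The same amino acid CDR3 with the same genes was found in CD8 T cells, under other bases, for 224 in-frame members, 13.1% (11.5 to 14.7%), against 9.85% of DN-only and 7.74% of CD4-only clonotypes. For 81 members, 4.46% (3.60 to 5.51%), the identical nucleotide CDR3 stood in the CD8 table with another V gene and the same J gene, against 1.84% of DN-only and 1.71% of CD4-only clonotypes. In 42 of these the member was listed with TRBV13-1 and the CD8 clonotype with TRBV13-3, 2 genes of one family whose CDR3 starts are alike, and in 8 it was the reverse. These 81 held 429 DN and 349 CD4 reads, and their CD8 counterparts a median of 2 reads and at most 27. They were 12 of the 129 DN-leaning members, 9.30%, and 9 of the 267 CD4-leaning ones, 3.37%, a difference of 5.93 points (1.07 to 12.4). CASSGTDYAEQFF (TRBV13-1 and TRBJ2-1), the member with the second largest DN count, 42 reads with 2 in CD4, was one of them, with 9 CD8 reads under TRBV13-3. A clonotype with TRBV19 and TRBJ2-7, with 31 DN and 2 CD4 reads, had 10 CD8 reads under TRBV4. Whether such pairs are 1 rearrangement with unequal V calls was not tested. Without these 81 there were 1736 members.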

How the data were processed

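The authors made the libraries with the Takara SMARTer Mouse TCRα/β kit and aligned, assembled and exported clonotypes with MiXCR, whose version and settings are not given in the sources used here. The deposited tables give each clonotype its count of reads, not normalized, and its fraction of all reads, which the authors computed as count over table total and which was used here only to check the counts. No molecular identifiers are named. Each library was analysed on its own, and nothing was pooled.

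Clonotypes with TRBV and TRBJ genes were kept (41948 in DN, 44807 in CD4, 81212 in CD8). Allele suffixes were dropped. Shares of reads were taken over TCR beta reads, and the smallest share that 3 reads can show was 0.00154% in DN, 0.00224% in CD4 and 0.00199% in CD8. Ratios of single clonotypes were counts over totals with an exact binomial interval, and log2 ratios had 0.5 reads added. DN-leaning and CD4-leaning members had log2 ratios past 4-fold. DN-only and CD4-only clonotypes were found in 1 library. In-frame clonotypes had a length divisible by 3 and no stop codon. The usual V end and J start were read from in-frame clonotypes of all libraries, base by base, until the most common base fell under 50%. No germline sequences were used, so a match can run past the gene's own bases. Mean differences have normal 95% intervals. The older Vβ names came from the RefSeq gene list of GRCm38.p6, used for names only. Named clonotypes were the 10 members with the most DN reads, the 10 with the most CD4 reads, the 10 with the largest smaller share, the 3 highest and 3 lowest ratios at 10 or more reads, and the 3 with the most nucleotide sequences, with ties broken by total reads and then by sequence, and the text describes part of them. Named V genes were the 5 most used and those differing from both other sets, and others were named after their values were seen. The members, gene sets and comparisons were chosen with earlier results of these data known. Tested on simulated data, the scripts recovered 4 of 4 known quantities in libraries of 20000 clonotypes. These were the number of shared clonotypes, the in-frame difference, the merged copies with 1 mismatch and the reads kept in merging. Junction bases, differences in V and J use and read ratios were not part of this simulation. The scripts ran in Python 3.11.15 with pandas 2.3.3, NumPy 2.4.6, SciPy 1.17.1 and, for plots, matplotlib 3.10.9.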

Additional observations from a re-analysis of the deposited data

How the results depend on the processing

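Of 105 values of 14 results under 9 alternatives, 83 stayed within the reported interval (or within 1.5 times the reported number), 19 moved beyond it and 3 changed the sign of a difference whose interval did not include 0. A further 4 values, counted among the first groups, changed the sign of a difference whose interval did include 0, 1 for TRBJ2 against DN-only and 3 for the share without a D gene against CD4-only clonotypes. The 83 also hold values that could not move. CDR3 length and junction bases already use in-frame clonotypes, so the setting with in-frame clonotypes only repeats them. With at least 2 reads in DN and in CD4, there were 385 members, the ratio of DN to CD4 shares was 0.413, and the in-frame differences became -0.66 points from DN-only and -2.20 points from CD4-only clonotypes. CDR3 length then differed by -1.06 and 0.0315 nucleotides, junction bases by -0.875 and -0.0919, and the share without a D gene by 6.60 and 2.72 points. Weighting by reads used the members' DN reads against DN-only and their CD4 reads against CD4-only clonotypes, so the 2 differences rest on different member values. The in-frame difference from DN-only clonotypes was then 3.05 points. CDR3 length differed by -0.26 from DN-only and -0.23 nucleotides from CD4-only clonotypes (the latter changing sign). Junction bases differed by -0.44 from DN-only clonotypes. With the same weights the TRBV13-1 share differed by 4.12 points from DN-only and 1.17 points from CD4-only clonotypes, the TRBJ2 share by 1.86 points and the share without a D gene by 0.40 points from DN-only clonotypes. Matching by amino acid CDR3 gave in-frame differences of 6.14 and 3.97 points. Reweighting DN-only clonotypes by read class gave an in-frame difference of 3.45 points. Taking 1 CD8 read as absence gave a ratio of 0.569. Fewer clonotypes entered at 2 or more reads, where DN-only also held members with 1 CD4 read and CD4-only those with 1 DN read. Beyond this the causes were not tested. Drawn to equal depth, 1583 members are expected by the exact formula, and matching by nucleotide CDR3 alone gave 1859. Single reads carry most of the set, so depth limits both presence and absence. No paired analysis was possible because each subset had 1 library.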

Other observations

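TCR alpha clonotypes were few, 78 in DN (85 reads) and 82 in CD4 T cells (101 reads). Of these, 0 were shared by DN and CD4, which allows up to 3.85% of the DN ones. With so few reads, this cannot tell whether TCR alpha clonotypes were shared. It is also not comparable with the share of TCR beta clonotypes, which rests on far more reads. One member chosen by the naming rule did not begin with the conserved cysteine of a CDR3. It was GAEQFF, listed with TRBV8 and TRBJ2-1, with 8 DN and 14 CD4 reads, and its 18 bases stood in the CD8 table with 6 reads under TRBV17. Such CDR3s without the cysteine codon were 3 of the members (0.165%), against 0.649% of DN-only and 0.609% of CD4-only clonotypes.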
